A study of Mus musculus with 9 samples.

Results

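Arntl, Clock, Npas2, Cry1, Nfil3 and Rora, 6 genes of the activating arm of the circadian clock and its partners, were followed in liver RNA from a mouse study of gefitinib injury. They were taken by their gene symbols, and all 6 were found among the 27945 genes with a count. The series holds 9 mouse liver libraries in groups labelled treated, model and control, with n = 3 libraries each, and its title ties the liver damage to gefitinib, a kinase inhibitor of the epidermal growth factor receptor. The treated group carries no label of what it was given, and dose, strain, sex, age and hour of collection are not labelled for any group. Polyadenylated RNA was sequenced. The labels do not state whether each library is a separate mouse. The spread that the p-values rest on may therefore be technical.

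The clock of mammalian cells is a loop of transcription factors. BMAL1, the product of Arntl, pairs with CLOCK or with NPAS2, a close relative of CLOCK, and the pair binds E-box elements of clock genes, among them the Period, Cryptochrome and REV-ERB genes. CRY1 closes the loop by repressing that pair. RORA and the REV-ERB receptors compete for the ROR response elements of Arntl and other genes, where RORA activates and REV-ERB represses. NFIL3 represses D-box genes, which the PAR bZIP factors DBP, TEF and HLF activate. In mouse liver the RNAs of Arntl and Npas2 are known to swing over the day opposite to those of Dbp and Per3.

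Start regions are shown for the 3 members with a full ROR element core or an E-box, since the loop described above runs through such elements. Each window runs from 250 bases before to 50 bases after a RefSeq transcript start (GRCm38.p6) and is printed 5′ to 3′ on the strand of the gene. Capitals mark the matches. The windows are chr7:113207261-113207560 (plus strand) for Arntl, chr13:52980990-52981289 (minus strand) for Nfil3 and chr10:85185005-85185304 (minus strand) for Cry1.
Arntl: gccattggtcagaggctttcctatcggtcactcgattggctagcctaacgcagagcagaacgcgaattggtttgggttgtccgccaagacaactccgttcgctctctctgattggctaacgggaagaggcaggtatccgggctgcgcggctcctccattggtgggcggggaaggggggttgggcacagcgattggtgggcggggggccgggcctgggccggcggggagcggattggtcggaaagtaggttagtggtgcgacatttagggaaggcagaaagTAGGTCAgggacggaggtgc
Nfil3: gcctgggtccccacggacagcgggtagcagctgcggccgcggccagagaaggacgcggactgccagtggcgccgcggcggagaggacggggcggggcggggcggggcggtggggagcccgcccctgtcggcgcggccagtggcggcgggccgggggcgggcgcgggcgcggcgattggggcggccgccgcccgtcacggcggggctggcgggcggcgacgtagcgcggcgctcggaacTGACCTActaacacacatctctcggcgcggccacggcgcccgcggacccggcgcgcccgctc
Cry1: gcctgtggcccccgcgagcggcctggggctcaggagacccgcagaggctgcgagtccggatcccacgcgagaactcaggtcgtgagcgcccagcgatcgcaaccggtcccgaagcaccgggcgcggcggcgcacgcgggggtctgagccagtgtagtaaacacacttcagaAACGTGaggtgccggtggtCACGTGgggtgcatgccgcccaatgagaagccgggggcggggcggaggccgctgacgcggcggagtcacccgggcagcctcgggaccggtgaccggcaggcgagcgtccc
The core of the ROR and REV-ERB element is TAGGTCA on either strand. It was in 1 window of Arntl (31 bases after the start) and in that of Nfil3 (from 12 bases before the start, on the opposite strand). Another window of Arntl (chr7:113207215-113207514, not shown) had no match. The core was in a window of 2.97% of 27025 genes. Its shorter form AGGTCA lies within it, and was also in 1 window of Clock (not shown), so that 3 of the 6 genes had it, against 18.1% of all genes. Cry1 had an E-box CACGTG 60 bases before its start and an E′-box CACGTT on the opposite strand 79 bases before it, which 8.09% and 5.44% of genes have. The D-box forms TTATGTAA and TTACGTAA were in no member's window, and in 1.11% and 0.126% of those of all genes. These matches are letters in a window of 300 bases and describe no binding.

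Library totals ran from 56440871 to 60665156 estimated counts. The TMM factors that rescale these totals were 1.05 to 1.14 in treated, 0.949 to 0.998 in model and 0.905 to 0.978 in control libraries, so that a given count stands for a lower CPM in treated libraries. As a check of the labelled tissue, 6 hepatocyte markers, Alb and Ttr among them, summed to 64430 to 77270 CPM (a count relative to its library total, after TMM scaling of that total) in treated, 80990 to 84510 CPM in model and 79430 to 91860 CPM in control livers. Transcripts of skeletal muscle were uneven. The 10 muscle markers of the list, Acta1 and Ckm among them, summed to 138 to 179 CPM in the treated libraries and 206 CPM in model replicate 1. They summed to 0.965 and 0.997 CPM in model replicates 2 and 3 and to 0.911 to 1.38 CPM in the control libraries, where 5 to 7 of the 10 were at 0. Endothelial markers (6 genes) summed to 45.0 to 62.8 CPM in treated, 81.3 to 99.9 CPM in model and 217 to 256 CPM in control livers, and Kupffer and macrophage markers (6 genes) to 507 to 581, 216 to 272 and 140 to 232 CPM. Stellate cell markers (5 genes) summed to 163 to 192, 146 to 159 and 203 to 247 CPM, and neutrophil markers (4 genes) to 5.22 to 114.5, 8.10 to 20.4 and 1.27 to 2.88 CPM. The part of these cell types in the members' differences was not tested. Whether the members' changes came from fewer cells of a type or from less RNA per cell cannot be told apart in such bulk samples. The hour of collection is not labelled, so a difference in hour between the groups cannot be told apart from the group. Its part in the members' differences was not tested.

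In model livers the activators Arntl, Npas2 and Clock and the receptor gene Rora fell relative to control livers, Npas2 by the widest fold. All 6 members had every model library below every control library, against 10.2% of the 18113 genes tested that lay lower in this way. Called at an adjusted p under 0.05 (edgeR's quasi-likelihood test, Benjamini-Hochberg adjustment over all genes tested) were 4 of 6 members, all lower, against 0.596% of all genes called lower. None was called higher by edgeR, DESeq2 or limma-voom, against 0.519% of all genes with edgeR. At an unadjusted p under 0.05, 6 of 6 were lower and 0 higher, against 6.81% and 7.14% of all genes. Cry1 and Nfil3 were not called after adjustment. The median log2 fold change of the 6 was -1.21, and that of all genes tested was 0.00 to 2 decimals.

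Arntl (chromosome 7, 113207465 to 113314126, plus strand), the gene of BMAL1, was at 7.83, 6.07 and 9.83 CPM in the model libraries and 19.2, 23.0 and 26.2 CPM in the control libraries. Even the highest model library lay well under the lowest control library. It fell 2.88-fold (log2 fold change -1.53, SE 0.23, adjusted p = 0.0128), a call that ended without model replicate 1 or 2 (adjusted p = 0.0515 and 0.0584). Npas2 (chromosome 1, 39193731 to 39363236, plus strand), the alternative partner of BMAL1, was at 0.774, 0.383 and 0.437 CPM in model and 2.77, 5.40 and 3.34 CPM in control livers. These are 43, 23 and 25 counts against 155, 281 and 179 counts, the lowest numbers of the 6 genes. The groups lay far apart, and the fold was the widest among the members (7.20-fold lower, log2 fold change -2.85, SE 0.43, adjusted p = 0.0128). This call ended without model replicate 2 or 3 (adjusted p = 0.0678 and 0.0644) and with limma-voom (adjusted p = 0.053).

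Clock (chromosome 5, 76209868 to 76304792, minus strand), the other partner of BMAL1, was at 27.3, 28.4 and 32.0 CPM in model and 40.7, 49.1 and 42.5 CPM in control livers. The groups did not overlap, but the fold was small (1.51-fold lower, log2 fold change -0.59, SE 0.12, adjusted p = 0.0464). This call sat at the threshold and ended in 11 of 16 alternatives. Among these were the omission of any single model library (adjusted p = 0.143, 0.154 and 0.088) or control library (adjusted p = 0.0577, 0.135 and 0.0966), and of treated replicate 1 or 2 (adjusted p = 0.0539 and 0.063), and also limma-voom (adjusted p = 0.059) and scaling by library totals alone (adjusted p = 0.0765). Rora (chromosome 9, 68653786 to 69388246, plus strand), the receptor that activates through ROR elements, was at 33.5, 33.3 and 37.9 CPM in model and 50.6, 61.9 and 51.1 CPM in control livers. It fell 1.56-fold (log2 fold change -0.64, SE 0.11, adjusted p = 0.0206), and was not called without model replicate 1 or 2 or control replicate 2 (adjusted p = 0.0726, 0.0975 and 0.0636).

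The repressors pointed downward in the same libraries without passing the threshold. Nfil3 (chromosome 13, 52967209 to 52981073, minus strand), the repressor of D-box genes, was at 19.4, 14.2 and 26.6 CPM in model and 49.4, 58.4 and 63.3 CPM in control livers, a log2 fold change of -1.51 (SE 0.30, adjusted p = 0.0619). Its estimate was close to that of Arntl, and it was called by DESeq2 (adjusted p = 7.87e-06), by limma-voom (adjusted p = 0.0373), in a fit of the model and control libraries alone (adjusted p = 0.0235) and without treated replicate 2 (adjusted p = 0.02). Cry1 (chromosome 10, 85131700 to 85185064, minus strand), the repressor of the BMAL1 pair, was at 7.78, 6.27 and 9.29 CPM in model and 12.4, 17.7 and 13.9 CPM in control livers. Its log2 fold change was -0.91 (SE 0.22, adjusted p = 0.0795), past the threshold with DESeq2 (adjusted p = 0.00689) and in none of the other 15 alternatives.

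Model replicate 1, the model library with muscle transcripts, lay between model replicates 2 and 3 for Arntl, Cry1, Nfil3 and Rora, was the lowest of the 3 for Clock and the highest for Npas2. Without that library the log2 fold changes of the 6 genes ran from -3.22 to -0.55, and 1 member, Npas2, was called. The part of the muscle transcripts in the other results was not tested.

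**Figure D1:**
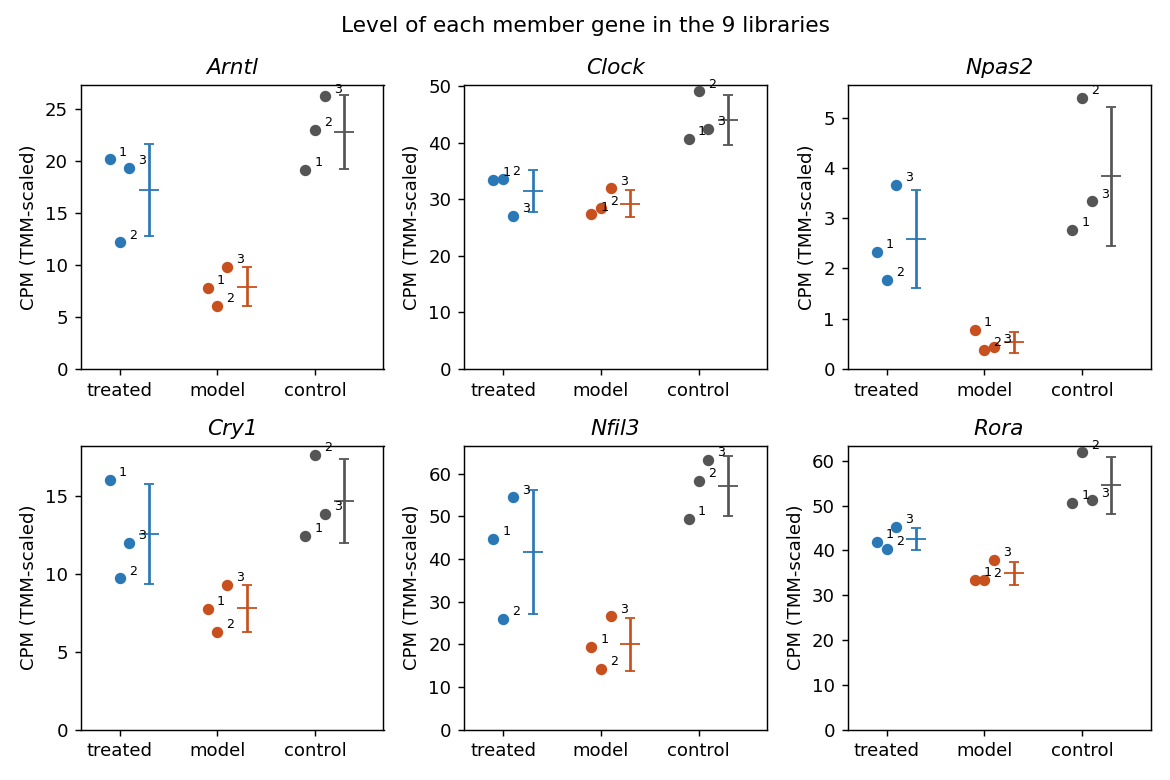
Level of each member in CPM (y axis, linear, from 0) in the treated, model and control libraries, with replicate numbers beside the points and mean ± SD (n = 3) to their right. Every model point lies below every control point in all 6 panels, and the treated mean lies between the model and control means in each.

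In treated livers Arntl and Npas2 stood higher than in model livers, and these were the 2 of 6 members called, against 5.21% of all genes called higher and 9.65% called in either direction. No member was called lower by edgeR, DESeq2 or limma-voom, and none had an unadjusted p under 0.05 in that direction. Arntl was at 20.2, 12.2 and 19.4 CPM in the treated libraries, against 7.83, 6.07 and 9.83 CPM in the model libraries, and rose 2.18-fold (log2 fold change 1.12, SE 0.23, adjusted p = 0.0118). Without model replicate 1 its adjusted p was 0.0522. Npas2 was at 2.33, 1.77 and 3.67 CPM in treated and 0.774, 0.383 and 0.437 CPM in model livers, or 159, 116 and 233 counts against 43, 23 and 25. It rose 4.86-fold (log2 fold change 2.28, SE 0.42, adjusted p = 0.00796) and was called in each of 16 alternatives, with adjusted p up to 0.038.

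The other 4 members were not called between treated and model livers. Cry1 was at 16.1, 9.71 and 12.0 CPM in treated and 7.78, 6.27 and 9.29 CPM in model livers (log2 fold change 0.69, SE 0.22, adjusted p = 0.074). Nfil3 was at 44.7, 25.9 and 54.5 CPM in treated and 19.4, 14.2 and 26.6 CPM in model livers (log2 fold change 1.06, SE 0.30, adjusted p = 0.0629). For Nfil3, treated replicate 2 fell within the range of the model libraries, and without it the adjusted p was 0.0125, while that of Cry1 was 0.0488. Nfil3 was also past the threshold without model replicate 3 (adjusted p = 0.0488), with limma-voom (adjusted p = 0.0455) and with DESeq2 (adjusted p = 0.00183), and Cry1 with DESeq2 (adjusted p = 0.0302). Rora was at 41.9, 40.4 and 45.2 CPM in treated and 33.5, 33.3 and 37.9 CPM in model livers (log2 fold change 0.28, SE 0.11, adjusted p = 0.13). With library totals alone it was called (log2 fold change 0.45, adjusted p = 0.019). Clock, at 33.5, 33.7 and 27.1 CPM in treated and 27.3, 28.4 and 32.0 CPM in model livers, overlapped between the groups (log2 fold change 0.10, 95% interval -0.16 to 0.37, adjusted p = 0.671). In 4 of 6 members, Arntl, Npas2, Cry1 and Rora, every treated library lay above every model library, against 16.2% of genes tested. The median log2 fold change of the 6 was 0.88, against 0.01 for all genes tested.

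Set against control livers, treated livers had less Clock and Rora RNA, and the remaining members were not called. The 2 calls, both lower, compare with 8.47% of all genes called lower in that comparison, and the same 2 genes were those without overlap of libraries, against 18.0% of all genes lower and 19.3% higher in this way. No member was called higher by edgeR, DESeq2 or limma-voom, and none had an unadjusted p under 0.05 in that direction. Clock fell 1.40-fold (33.5, 33.7 and 27.1 CPM in treated, against 40.7, 49.1 and 42.5 CPM in control livers, log2 fold change -0.49, SE 0.12, adjusted p = 0.0181). Without treated replicate 3 or control replicate 2 it was not called (adjusted p = 0.066 and 0.0708). Scaled by library totals alone its log2 fold change was -0.27 (adjusted p = 0.16), and its counts were 2285, 2206 and 1723 in treated and 2278, 2556 and 2276 in control libraries, which overlapped. Rora fell 1.28-fold (41.9, 40.4 and 45.2 CPM in treated, against 50.6, 61.9 and 51.1 CPM in control livers, log2 fold change -0.36, SE 0.11, adjusted p = 0.0409). That call ended in 11 of 16 alternatives, among them the omission of model replicate 1 or 2 (adjusted p = 0.0562 and 0.057), of any treated library (adjusted p = 0.109, 0.123 and 0.059) or of control replicate 2 or 3 (adjusted p = 0.151 and 0.0531). With no filter its adjusted p was 0.0587, in the fit of 2 groups 0.067, and with library totals alone 0.349, at a log2 fold change of -0.15.

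For the other 4 members the intervals of the difference between treated and control livers held 0. The log2 fold change was -0.40 for Arntl (95% interval -0.89 to 0.09) and -0.57 for Npas2 (95% interval -1.43 to 0.30). It was -0.22 for Cry1 (95% interval -0.70 to 0.26) and -0.45 for Nfil3 (95% interval -1.12 to 0.22). These intervals leave room for differences of over 1.5-fold in each of the 4 genes, so that equal levels are not shown. The median log2 fold change of the 6 was -0.43, against -0.01 for all genes tested. Muscle transcripts were in all 3 treated libraries and in none of the control libraries beyond 1.38 CPM, so that their presence and the treated group cannot be told apart in this comparison. The comparisons share libraries. Each group enters 2 of the 3 comparisons, and the treated mean lay between the model and control means for 6 of 6 members.

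**Figure D2:**
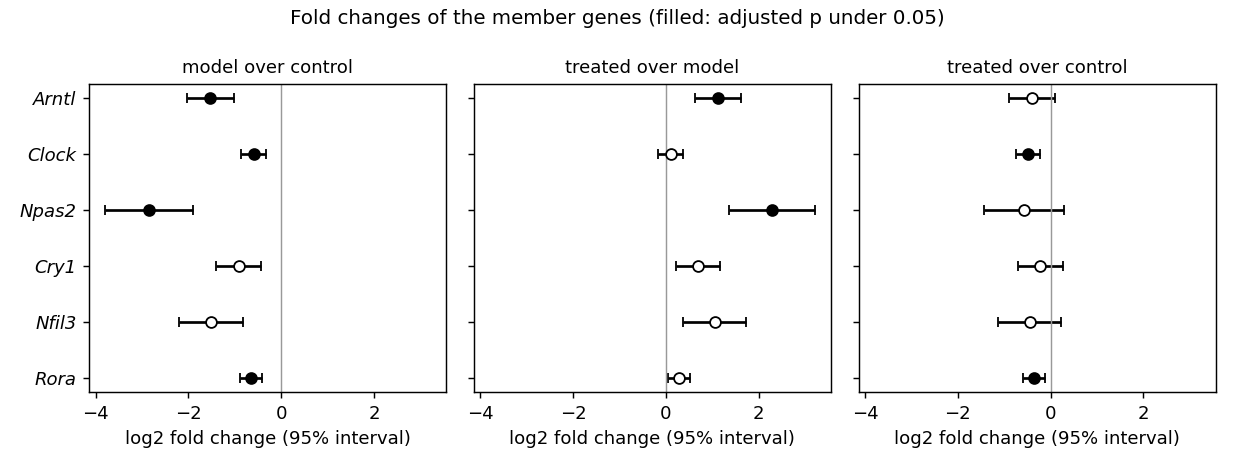
Log2 fold change of each member (x axis, same scale in each panel) in model over control, treated over model and treated over control livers, with 95% intervals of the edgeR fit and filled points for an adjusted p under 0.05. Npas2 and Arntl have filled points left of 0 in the first panel and right of 0 in the second, and Clock and Rora are filled in the panels of model over control and treated over control.

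Ratios between members within a library do not depend on library scaling. NPAS2 and CLOCK are alternative partners of BMAL1, and the log2 ratio of Npas2 to Clock counts was -3.84, -4.24 and -2.88 in treated, -5.13, -6.18 and -6.16 in model and -3.87, -3.18 and -3.66 in control libraries. Model libraries lay below both other groups. The mean difference was -2.25 for model minus control and 2.17 for treated minus model livers. Each had p = 0.10 in a two-sided exact permutation test, the smallest value possible with 3 against 3 libraries, and 0.15 after adjustment over 6 such tests. For treated minus control livers the difference was -0.08 (exact permutation p = 0.90).

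The log2 ratio of Arntl to Cry1 counts, of an activator to its repressor, was 0.33, 0.33 and 0.69 in treated, 0.01, -0.05 and 0.08 in model and 0.63, 0.38 and 0.92 in control libraries. Again the model libraries were apart from the rest. The differences were -0.63 for model minus control and 0.43 for treated minus model livers (exact permutation p = 0.10 each, adjusted p = 0.15), and -0.19 for treated minus control livers (exact permutation p = 0.50).

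**Figure D3:**
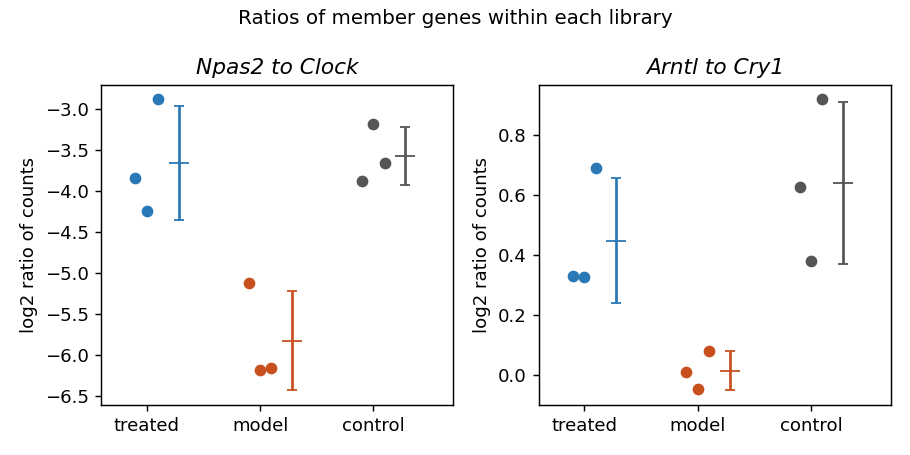
Log2 ratio of estimated counts (y axis) of Npas2 to Clock and of Arntl to Cry1 in each treated, model and control library, with mean ± SD (n = 3) to the right of the points. In both panels the 3 model libraries lie below the libraries of the other groups.

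Within groups the members moved together to different degrees. Treated replicate 2 was the lowest treated library for 5 of 6 members, all but Clock, for which it was the highest. Model replicate 2 was the lowest model library for the same 5 genes, and control replicate 1 the lowest control library for 6 of 6. After subtraction of group means, Pearson's r of log2 CPM over the 9 libraries was 0.96 for Arntl and Nfil3, 0.81 for Arntl and Cry1 and 0.72 for Cry1 and Nfil3. It was 0.46 for Arntl and Npas2, and -0.22 for Clock and Npas2, the lowest of 15 pairs. These coefficients describe 9 libraries of similar depth.

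Per length, Nfil3 was the most abundant of the 6 in each group. Summed over transcripts, its deposited FPKM averaged 19.9 ± 6.77 in treated, 8.46 ± 2.64 in model and 23.3 ± 2.50 in control livers (SD, n = 3). Arntl averaged 5.95 ± 1.70 FPKM in treated, 2.33 ± 0.538 FPKM in model and 6.67 ± 0.936 FPKM in control livers. By this sum it was second, apart from the genes below it, in control livers. The gene-level FPKM that the authors deposited put Arntl elsewhere, at 2.18, 2.44 and 2.89 in control libraries, against 3.32, 3.79 and 3.24 for Rora and 2.54, 2.87 and 2.56 for Clock, so that the rank of Arntl depends on which FPKM is used. Rora averaged 4.03 ± 0.103, 3.18 ± 0.406 and 4.33 ± 0.450 FPKM in treated, model and control livers, Cry1 4.06 ± 1.17, 2.20 ± 0.433 and 4.03 ± 0.632 FPKM, and Clock 3.13 ± 0.456, 2.60 ± 0.287 and 3.75 ± 0.259 FPKM. In model and control livers neighbours in the order of Rora, Cry1 and Clock overlapped, so that the order of neighbours is not resolved. Rora lay without overlap above Cry1 in model livers (2.78 to 3.59 against 1.83 to 2.68 FPKM). It lay narrowly above Clock in control livers (4.06 to 4.85 against 3.58 to 4.05 FPKM). In treated livers Cry1 overlapped with both Rora and Clock. Rora (3.92 to 4.12 FPKM) lay above Clock (2.61 to 3.45 FPKM) in every treated library too. Arntl overlapped with each of these genes in model livers, and with Rora and Cry1 but not Clock in treated livers. Npas2 was the lowest throughout, at 0.612 ± 0.200 FPKM in treated, 0.104 ± 0.0376 FPKM in model and 0.763 ± 0.278 FPKM in control livers.

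A single coding transcript carried most of the signal of each gene. For Clock, Npas2, Cry1 and Nfil3 this transcript held at least 95.1% of the gene's FPKM in every group. For Arntl the 20-exon transcript ENSMUST00000047321 held 88.0% in treated, 92.8% in model and 94.1% in control livers. Another coding transcript of Arntl, ENSMUST00000211770, had 193 counts in treated replicate 3 and 0 to 4 counts in every other library. A further coding transcript, ENSMUST00000210074, had 29 and 49 counts in model replicates 1 and 2 and 0 in every other library. For Rora the 11-exon transcript ENSMUST00000034766 held 92.8% in treated, 84.1% in model and 95.1% in control livers. Most of the rest was a noncoding transcript of 3 exons, ENSMUST00000140351, with 26, 40 and 17 counts in treated, 25, 55 and 63 counts in model and 10, 28 and 18 counts in control libraries. Its libraries overlapped between the groups. No member overlaps an annotated gene with more than 67 counts in a library, the highest being the pseudogene Ube2n-ps1 within Clock.

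Other clock genes mostly pointed upward in model compared with control livers, but edgeR called none. Of 34 other clock genes listed with the 6 members, 33 were tested. The list held 12 liver clock output genes, 7 genes of clock protein kinases and ubiquitin ligase parts and 5 of Period and Cryptochrome repressors. It also held 3 PAR bZIP genes, 3 paralogs of members, 2 REV-ERB genes and 2 basic helix-loop-helix repressors. With edgeR, 0 of 33 passed over all genes in either direction, where 1.12% of all genes did. At an unadjusted p under 0.05, 12 of 33 were higher and 0 lower, against 7.14% and 6.81% of all genes. These 12 were Per3, Cry2, Ciart, Dbp, Tef and Bhlhe41 and the output genes Por, Cyp7a1, Cyp2a5, Nampt, Wee1 and Usp2. In 14 every model library lay above every control library and in 1 below, against 9.71% and 10.2% of all genes. DESeq2 called 9 of the 33, and 871 of all genes, and limma-voom 4, and 164 of all genes. The median log2 fold change of the 33 was 0.32. Dbp, the D-box activator opposed by NFIL3, was at 132, 88.4 and 61.6 CPM in model and 26.5, 8.80 and 3.92 CPM in control livers. Every model library was above every control library, but the control libraries differed several-fold among themselves (log2 fold change 2.84, SE 0.94, adjusted p = 0.259). Per3, a Period gene, was at 32.8, 33.7 and 26.4 CPM in model and 9.04, 3.21 and 3.10 CPM in control livers, likewise without overlap (log2 fold change 2.60, SE 0.57, adjusted p = 0.0885). Per2 (log2 fold change 0.92) and the REV-ERB gene Nr1d1 (0.27) had adjusted p = 0.474 and 0.877.

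In treated compared with model livers, 7 of the 33 were lower and 1 higher, against 4.44% and 5.21% of all genes. The REV-ERB gene Nr1d2 fell 1.68-fold (adjusted p = 0.021) and Tef, a PAR bZIP gene, 2.90-fold (adjusted p = 0.0052). Per3 was at 3.80, 9.99 and 3.52 CPM in treated and 32.8, 33.7 and 26.4 CPM in model livers and fell 5.37-fold (adjusted p = 0.0375). Of the output genes, Cyp7a1, the rate-limiting enzyme of bile acid synthesis, fell 3.68-fold (adjusted p = 0.0338), Cyp8b1, a sterol hydroxylase, 2.21-fold (adjusted p = 0.00174) and Gys2, the liver glycogen synthase, 1.89-fold (adjusted p = 0.0116). The higher gene was Csnk1e, a kinase of PER proteins (1.73-fold, adjusted p = 0.0106). Dbp was at 3.12, 11.9 and 2.09 CPM in treated and 132, 88.4 and 61.6 CPM in model livers, without overlap but not called (log2 fold change -4.04, SE 1.00, adjusted p = 0.0563). Per2 (log2 fold change -0.97) and Nr1d1 (-1.24) had adjusted p = 0.283 and 0.167. The calls of Per3, Nr1d2 and Cyp7a1 each ended without model replicate 1 and without treated replicate 1, with adjusted p up to 0.13, 0.0785 and 0.103. That of Per3 also ended without model replicate 2 or 3 or treated replicate 3, that of Nr1d2 without model replicate 3, and that of Cyp7a1 without model replicate 2, treated replicate 2 or 3 or control replicate 3. Library totals alone ended the calls of Nr1d2 and Cyp7a1, and testing with no filter those of Per3 and Cyp7a1.

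In treated compared with control livers, 5 of the 33 were lower and 5 higher, against 8.47% and 9.36% of all genes. Cyp8b1 fell 2.10-fold, Cyp7b1, an oxysterol hydroxylase, 3.05-fold, Tef 1.76-fold and Gys2 1.52-fold (adjusted p = 0.00118, 0.0322, 0.0445 and 0.0445). Bhlhe41 and Bhlhe40, repressors that bind E-boxes, rose 8.30-fold and 1.73-fold (adjusted p = 0.00467 and 0.0304), Csnk1e 1.84-fold (adjusted p = 0.00321), Wee1, a cell cycle kinase, 2.31-fold (adjusted p = 0.0447) and Cyp2a5 21.2-fold (adjusted p = 0.0112). Cyp2a5 has a close paralog, so its counts are uncertain. Dbp, Per2, Per3 and Nr1d1 had adjusted p = 0.439, 0.966, 0.879 and 0.216. The calls of Tef, Bhlhe40, Cyp7b1, Wee1 and Gys2 each ended without treated replicate 1 and without control replicate 2, with adjusted p up to 0.145, 0.0833, 0.102, 0.15 and 0.142. Those of Tef, Wee1 and Gys2 also ended without any 1 of the model libraries or treated replicate 3, and that of Cyp7b1 without model replicate 2. Further, Bhlhe40, Cyp7b1 and Wee1 were not called without treated replicate 2 or control replicate 3, Tef without control replicate 1 or 3, and Cyp7b1 and Gys2 without control replicate 1. Library totals alone ended the calls of Tef and Gys2, testing with no filter those of Tef and Cyp7b1, and the fit of 2 groups those of Tef, Bhlhe40, Wee1 and Gys2.

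**Figure D4:**
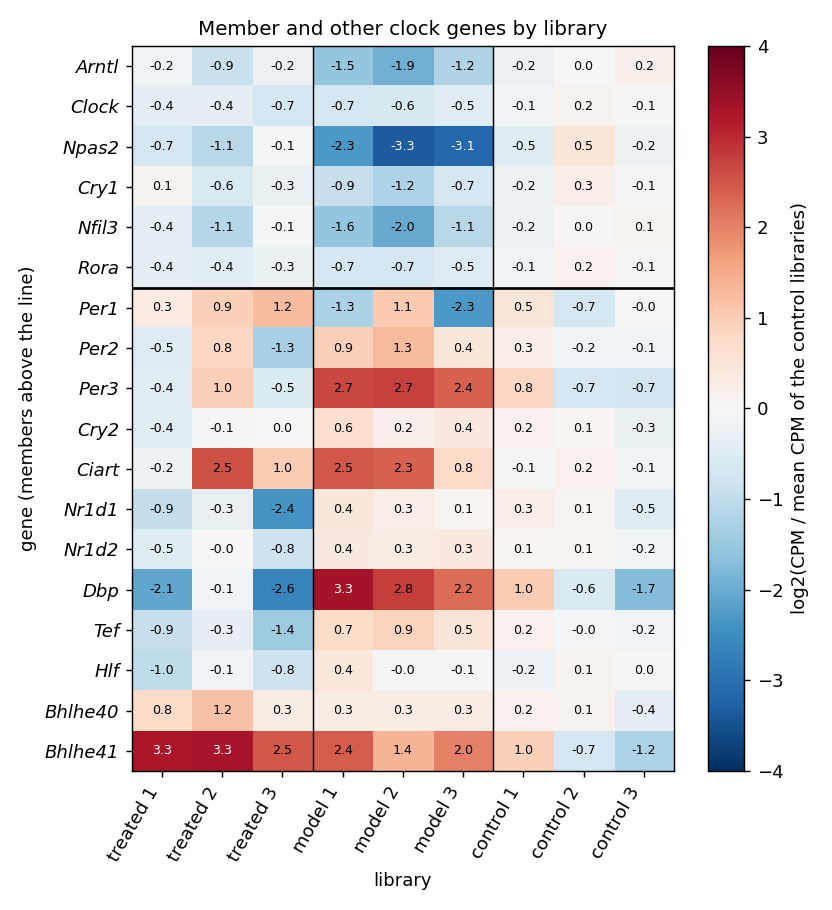
Log2 ratio of each library's CPM to the mean CPM of the control libraries (colour and printed value) for the 6 members, above the line, and 12 other clock genes, with treated, model and control libraries from left to right. In model libraries the members are below 0, and Per3 and Dbp are above 0 in all 3. Among treated libraries, replicate 2 has the highest Dbp and Per3 and the lowest Arntl, Npas2, Cry1 and Nfil3.

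The genes whose level over the 9 libraries was most like a member's were ranked by Pearson's r of log2 CPM among 9431 genes. Dtx4 was among the closest to Arntl (r = 0.95) and to Npas2 (r = 0.96). Most opposite to Arntl were Prdx3, a mitochondrial peroxiredoxin (r = -0.97), and Pklr, the liver pyruvate kinase (r = -0.95). For Clock the closest were Ppm1b and Wapl (r = 0.95 and 0.93), for Cry1 Ppp1r3c and Fam117b (r = 0.91 each), for Nfil3 Ccng2 and Tab2 (r = 0.95 each) and for Rora Nrde2 and Ahctf1 (r = 0.97 and 0.96). The libraries fall into 3 groups, and these coefficients include the differences between group means.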

How the data were processed

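RNA of 9 mouse liver libraries was aligned with HISAT2, per the submitters' processing notes, whose version is not given in the sources used here. Estimated counts were deposited for genes and for transcripts. FPKM, a level per transcript length and library depth, was deposited for both too. Gene counts equalled the sum of transcript counts in 99.993% of values. Whether counting used strand is not given in the sources used here. Of 27945 gene IDs, 27859 were in GENCODE M21 and 25083 had its start and end, so coordinates are GRCm38.

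Estimated counts were filtered with filterByExpr (minimum count 10, minimum total 15), leaving 18113 genes. One edgeR 4.0.16 quasi-likelihood fit (R 4.3.3) of all 9 libraries with TMM scaling gave the 3 comparisons, with Benjamini-Hochberg adjustment over all genes tested. CPM use TMM-scaled library sizes. Alternatives were DESeq2 1.42.0, limma-voom 3.58.1, other scaling, no filter, fits of 2 groups, a replicate block and the omission of each library. Of these steps only the edgeR fit was tested on simulated counts. Intervals are 95% intervals of the fit. FPKM were not rescaled. They were used for levels between genes, for the shares of transcripts and as an alternative for the ratios between members.

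The members and lists were chosen with earlier results of these data known. Named are all members, each other clock gene of the list called in a comparison, Dbp, Nr1d1, Per2 and Per3 in every comparison, and the 2 genes most like each member (for Arntl also the 2 most opposite) with a mean of at least 5 CPM. Not every gene so chosen is reported here, though counts over lists include all of them. Promoter windows are from RefSeq.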

Additional observations from a re-analysis of the deposited data

How the results depend on the processing

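Over alternatives other than the omission of a library, 103 member results kept direction and side of the threshold, 12 gained a call, 10 lost one and 1 changed sign. The sign change was Cry1 in treated compared with control livers, with a log2 fold change of 0.0037 on library totals alone, where the main value was not called. Library totals alone shifted the median log2 fold change of all genes by 0.17 for treated over model and 0.20 for treated over control livers. They gave 1639 genes higher and 410 lower in treated than in model livers, against 943 and 805 with TMM scaling, and 3019 higher and 819 lower in treated than in control livers, against 1696 and 1535. Rora, Cry1 and Nfil3 were then called higher in treated than in model livers (adjusted p = 0.019, 0.0301 and 0.0289), and 5 members in all instead of 2. In treated compared with control livers 0 members were then called (Clock 0.16 and Rora 0.349 adjusted p), while 1 was called with no filter and 1 in the fit of 2 groups.

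The number of genes called in model compared with control livers was 202, against 871 with DESeq2, and in treated compared with model livers 1748, against 2742 with DESeq2, which called 4 members there. Of the other clock genes in model compared with control livers, 0 were called, against 1 with RLE scaling, 9 with DESeq2, 4 with limma-voom and 1 in the fit of 2 groups. In treated compared with control livers 10 were called, against 6 in the fit of 2 groups. The cause of these changes was not tested.

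Libraries with the same replicate number did not deviate together (r from -0.076 to 0.072 over 9 pairs, 0 above 0.1). The labels do not say that a number links libraries, and such correlations from 3 libraries per group cannot exclude a link. With a replicate block 120 genes were called in model compared with control livers, 3 members there, 3 members in treated compared with model and 1 in treated compared with control livers. In that fit Clock and Rora in model compared with control livers had adjusted p = 0.0954 and 0.0542, and Rora in treated compared with control livers 0.0737. Nfil3 was called there in model compared with control and in treated compared with model livers (adjusted p = 0.0149 and 0.0166). Per3 and Cyp7a1 were no longer called in treated compared with model livers.

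With each library omitted in turn, 54 to 213 genes were called in model compared with control livers, 882 to 1660 in treated compared with model and 2169 to 2996 in treated compared with control livers. Members called numbered 0 to 4, 1 to 4 and 0 to 2, and other clock genes 0 to 3, 5 to 10 and 5 to 9. The log2 ratio of Npas2 to Clock differed by -2.60 to -2.06 for model minus control, 1.78 to 2.52 for treated minus model and -0.47 to 0.21 for treated minus control livers. The last changed sign without treated replicate 1 (0.01), treated replicate 2 (0.21) or control replicate 2 (0.11). The log2 ratio of Arntl to Cry1 differed by -0.76 to -0.49, 0.31 to 0.49 and -0.32 to -0.05. Among the members depth limits Npas2 most, with 23 to 43 counts in model libraries.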
